A study of Homo sapiens with 10 samples.

Results

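The genes described here are those that K562 cells left low while 3 other blood cancer lines used them. A gene was eligible when it reached 5 or more normalised CPM, a read count scaled to library size, in each of HL60, SUDHL4 and THP1. It was taken as low in K562 when log2(normalised CPM + 1) in K562 lay at least 2 below the lowest of those lines. The deposited values cover 20591 genes. Of these, 7602 were eligible, and 275 of these (3.62%) were low in K562. The values of the pure lines chose these genes, so their levels in those lines are given as a description and nothing was tested on them.

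Each group was 1 bulk RNA library of WT, untreated cells, labelled day 0 and grown in RPMI with 10% serum. K562 came from a chronic myeloid leukaemia in blast crisis, carries BCR-ABL1 and expresses embryonic and fetal globins. HL60 is an acute promyelocytic-type leukaemia line, THP1 an acute monocytic leukaemia line, and SUDHL4 was derived from a diffuse large B-cell lymphoma. The other 6 libraries were labelled as in vitro mixtures of all 4 lines, in ratios that the labels do not give. With 1 library per group there was no replicate, no test and no p-value, and every interval given here covers counting error only. The labels name a total RNA kit and an mRNA kit without saying which library had which, so kit and line cannot be told apart.

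White blood cells of the myeloid and lymphoid lineages share a set of genes, many but not all of which red cell precursors use little. It includes the integrins and actin regulators used to crawl and engulf, the adaptors that carry signals from immune receptors, the oxidase of phagocytes and a high output of class I antigen presentation. PU.1, FLI1, ETS1 and RUNX3 are transcription factors known to act on many of these genes. Nucleated cells of nearly all kinds present peptides on class I molecules, and loss of that pathway in tumour lines is well known.

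The labels of the lines were checked on marker genes. The summed erythroid markers reached 8235 normalised CPM in K562, against 10.2 in HL60, 5.73 in THP1 and 2.72 in SUDHL4. The promyelocyte list summed to 0.762 in K562, 16929 in HL60, 5660 in THP1 and 0.386 in SUDHL4, the B cell list to 8.53 in K562 and 5661 in SUDHL4, and the monocyte list to 15.1 in K562 and 2399 in THP1. T and NK cell markers summed to 15.4 in K562, 13.6 in HL60, 48.7 in THP1 and 267 in SUDHL4. No gene on any of the marker lists was eligible, so none could enter the set. The list of stromal and epithelial markers summed to 1599 in K562, against 7.81 or less in the other lines, 91.3% of it from the keratins KRT8 at 687, KRT18 at 621 and KRT19 at 151. The epithelial surface gene EPCAM stood at 117 in K562, the collagen COL1A2 at 21.9 and the collagen COL1A1 at 0.296. The part of these differences in the results below was not tested. Between 27166921 reads in SUDHL4 and 34571443 in K562 were recovered per pure library, and 24985570 to 36607612 per mixture.

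The word silent held for only some of the set. In K562, 54 of the 275 genes (19.6%) had 0 reads, which at this depth allows up to 0.0988 normalised CPM (a floor of 3 reads per library, also used for folds against 0). A further 39 had 1 to 3 reads, and 171 (62.2%) lay under 1 normalised CPM. At the other end 67 genes lay from 1 to 5, and 37 stood at 5 or more in K562 while remaining at least 2 log2 units below every other line. For that reason they are called low here. The median level of the set was 0.409 in K562, against 47.0 in HL60, 39.6 in THP1 and 50.7 in SUDHL4. The set took 0.163% of the K562 library, against 2.82% in HL60, 3.26% in THP1 and 4.28% in SUDHL4. Their median log2 gap, K562 minus the lowest other line, was -3.45, and over all eligible genes it was 0.57.

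**Figure D1:**
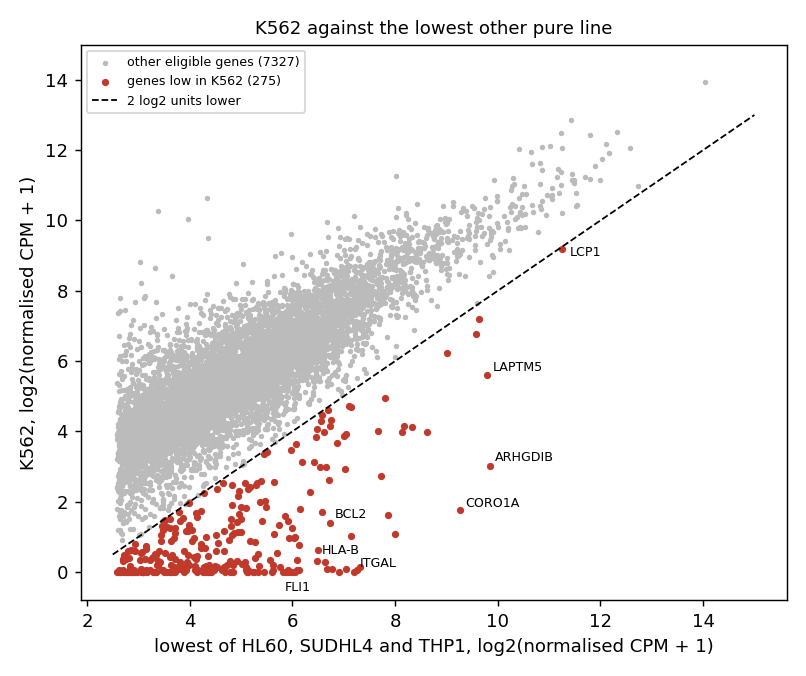
Level of each eligible gene in K562 (vertical axis) against its lowest level in HL60, SUDHL4 and THP1 (horizontal axis), both as log2(normalised CPM + 1), 1 library per line. The 275 red points lie on or under the dashed line that marks 2 log2 units lower, and the grey points are the 7327 other eligible genes.

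Among themselves the 275 genes were not equally used by the other lines. The highest level lay in SUDHL4 for 115 genes, in HL60 for 85 and in THP1 for 75. The lowest of those lines was THP1 for 105 genes, SUDHL4 for 94 and HL60 for 76. The median spread between the highest and lowest of them was 2.96-fold, with 71 genes under 2-fold and 36 at 10-fold or more. The evenest was TMEM154, a membrane protein gene, at 0.127 normalised CPM in K562, 20.2 in HL60, 19.9 in THP1 and 19.0 in SUDHL4. The most uneven was CD74, the invariant chain of class II molecules and the only eligible gene of the class II list, at 0.127 in K562, 16.2 in HL60, 229 in THP1 and 4045 in SUDHL4. Of the 275 genes 268 are annotated as protein coding.

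With the pseudocount of 1, the widest gap lay in the machinery that shapes the actin skeleton of blood cells. That lead depends on the pseudocount. At 0.5 the surface gene ITGAL had the widest gap, -8.2, against -7.74 for CORO1A. At 0.1 the gaps were -10.52 for ITGAL and -7.95 for CORO1A. CORO1A, a coronin that binds actin in leukocytes, stood at 2.39 normalised CPM in K562 (1.91 to 2.95 as the 95% range of counting error), against 1478 in HL60, 793 in THP1 and 616 in SUDHL4, a gap of -7.51. K562 thus lay 258-fold under SUDHL4, the lowest of the others. ARHGAP30, a GTPase-activating protein, had 3 reads in K562, or 0.0988, against 158 in HL60, 377 in THP1 and 244 in SUDHL4. That is 1602-fold lower than HL60, with a counting interval of 639 to 9068. ARHGDIB, which holds small GTPases of the cytoskeleton inactive in the cytosol of blood cells, stood at 7.10 in K562 (6.25 to 8.03), against 2314 in HL60, 924 in THP1 and 1489 in SUDHL4. MYO1G, a membrane-bound myosin of blood cells, had 2 reads or 0.0706 in K562, against 301 in HL60, 133 in THP1 and 101 in SUDHL4, a ratio of 1426 with a counting interval of 493 to 14724.

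In all, 19 of 32 eligible genes on a list of leukocyte actin and small GTPase regulators were low in K562, where the share over all eligible genes was 3.62%. This list and those below were drawn up with results of K562 in view. Their shares are therefore a description and not a test of over-representation. The median gap over the 32 was -2.83. Among them were DOCK2 and its partner ELMO1, which load Rac, the actin nucleation promoter WAS with its binding partner WIPF1, and NCKAP1L, the blood-cell subunit of the WAVE complex. DOCK2 measured 5.60 in K562, 235 in HL60, 210 in THP1 and 233 in SUDHL4. NCKAP1L measured 14.9 in K562, 394 in HL60, 600 in THP1 and 682 in SUDHL4. These were low without being silent, at 198 reads and 526 reads in K562. Rac was not low: RAC2, the blood-cell form, stood at 44.6 in K562, 251 in HL60, 288 in THP1 and 152 in SUDHL4, a gap of -1.75 that left it outside the set.

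After the 12 widest gaps, 5 more genes were named for the highest values in their lowest other line, uncorrected for gene length, and 3 of these 5 act on actin. LCP1, which bundles actin filaments, kept 585 normalised CPM in K562 (577 to 593), against 2437 in HL60, 2543 in THP1 and 4153 in SUDHL4. ARPC2, a subunit of the Arp2/3 actin nucleator, kept 146 in K562, against 1004 in HL60, 937 in THP1 and 799 in SUDHL4. COTL1, an actin-binding protein, kept 108 in K562, against 970 in HL60, 801 in THP1 and 759 in SUDHL4. These 3 genes show the shallow end of the set, with gaps of -2.06, -2.45 and -2.80. LCP1 left the set when libraries were scaled by total reads, with a gap of -1.87, or by housekeeping genes, with a gap of -1.85.

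At the cell surface both chains of the integrin LFA-1, with which leukocytes grip other cells, were without a single read in K562. ITGAL, its alpha chain, stood at 0 in K562, against 147 in HL60, 256 in THP1 and 158 in SUDHL4, so K562 was at least 1483-fold lower than HL60 when set at 3 reads. ITGB2, the beta chain shared with other leukocyte integrins, stood at 0 in K562, against 157 in HL60, 1107 in THP1 and 7.25 in SUDHL4. Its narrow gap of -3.04 comes from its low level in SUDHL4. The integrin alpha 4 beta 7 pair was low as well: ITGA4 stood at 0.946 in K562, against 198 in HL60, 105 in THP1 and 64.8 in SUDHL4. ITGB7 stood at 1.51 in K562, against 14.9 in HL60, 59.2 in THP1 and 256 in SUDHL4.

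Of 18 eligible leukocyte surface genes 11 were low in K562 (61.1%, against 3.62% of all eligible genes). The median gap over the 18 was -2.73. EVI2B and EVI2A, membrane protein genes that lie within an intron of NF1, stood at 1.00 and 0 in K562. EVI2B stood at 65.0 in HL60, 73.4 in THP1 and 85.5 in SUDHL4. LAPTM5, a lysosomal membrane protein of blood cells, kept 48.2 in K562, against 891 in HL60, 1612 in THP1 and 2192 in SUDHL4. PTPRC, which encodes the common leukocyte antigen CD45, was not low: it stood at 37.3 in K562, 42.7 in HL60, 120 in THP1 and 411 in SUDHL4, a gap of -0.19. CD53, a tetraspanin, also stayed outside at 23.8 in K562, against 45.2 in HL60, 79.8 in THP1 and 141 in SUDHL4. Off the list, the chemokine receptor CXCR4 had 5 reads or 0.155 in K562, against 163 in HL60, 36.7 in THP1 and 25.5 in SUDHL4. EMB, embigin, a chaperone of lactate transporters, had 1 read or 0.0424 in K562, against 152 in HL60, 894 in THP1 and 424 in SUDHL4.

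The proteins that carry signals from immune receptors included phosphatases, adaptors, kinases and lipases low in K562. INPP5D, which encodes the lipid phosphatase SHIP1 that removes a phosphate from the product of PI3 kinase, stood at 1.12 in K562 (0.797 to 1.52), against 255 in HL60, 495 in THP1 and 276 in SUDHL4. LAT2, a membrane adaptor, stood at 0.551 in K562, against 381 in HL60, 285 in THP1 and 89.9 in SUDHL4. SASH3, an adaptor of lymphocytes, had 0 reads in K562, against 65.1 in HL60, 47.4 in THP1 and 155 in SUDHL4. These genes had little or no RNA in K562, whereas the kinase and lipase at the centre of the pathway were only reduced. SYK, the kinase that starts many of these cascades, kept 30.0 in K562, against 221 in HL60, 430 in THP1 and 459 in SUDHL4. PLCG2, the phospholipase it activates, kept 6.62 in K562, against 151 in HL60, 130 in THP1 and 504 in SUDHL4. PTPN6, the phosphatase SHP-1, stood at 1.28 in K562, against 343 in HL60, 143 in THP1 and 10.2 in SUDHL4.

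The list of immune receptor signalling had 22 low genes of 36 eligible (61.1%, against 3.62% of all eligible genes). Its median gap was -2.79. Some kinases on it were not low. LYN, a Src-family kinase, stood at 191 in K562, against 32.5 in HL60, 107 in THP1 and 310 in SUDHL4. PRKCB, protein kinase C beta, was highest in K562 at 776, against 73.2 in HL60, 243 in THP1 and 61.9 in SUDHL4. Off this list, PLEK, pleckstrin, a substrate of protein kinase C, had 2 reads or 0.0706 in K562, against 131 in HL60, 191 in THP1 and 288 in SUDHL4. SH3KBP1, an adaptor of receptor uptake, stood at 2.10 in K562, against 232 in HL60, 355 in THP1 and 343 in SUDHL4. On the list, GNAI2, a G protein subunit behind chemokine receptors, kept 74.1 in K562, against 731 in HL60, 572 in THP1 and 518 in SUDHL4. MBP, off the list, a gene known for myelin that also yields transcripts in blood cells, stood at 0.212 in K562, against 222 in HL60, 142 in THP1 and 97.7 in SUDHL4.

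**Figure D2:**
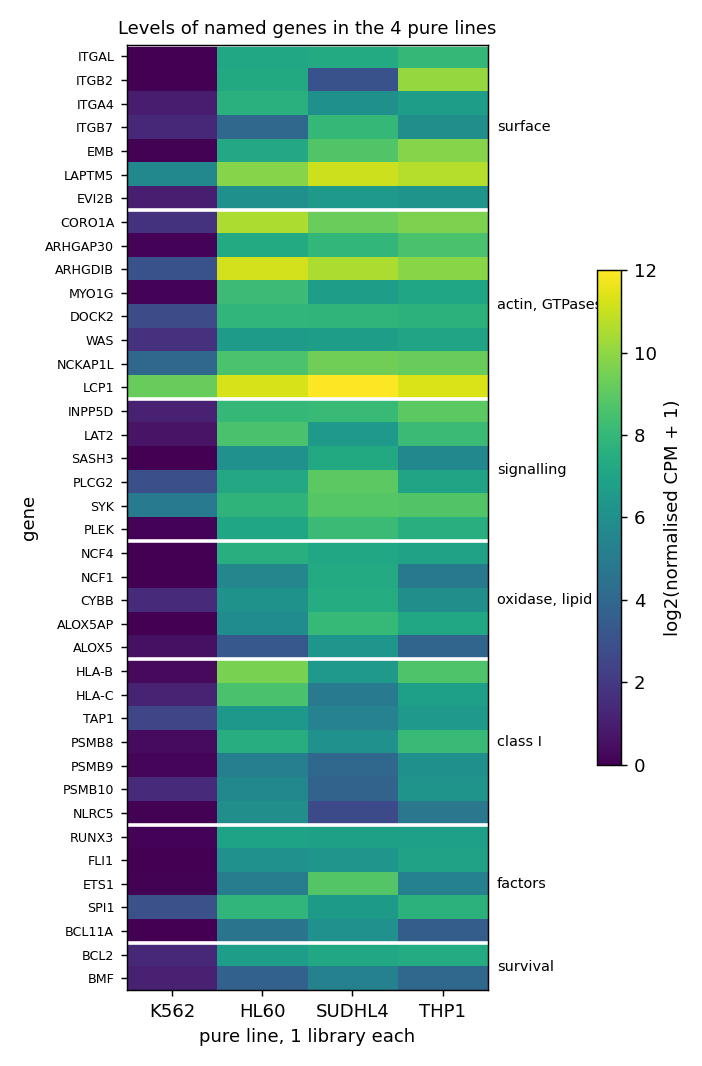
Levels of named genes as colour on a scale of log2(normalised CPM + 1), with K562 in the left column and HL60, SUDHL4 and THP1 to its right, 1 library each, grouped by role. The K562 column is dark for most rows, while LCP1, LAPTM5 and SYK keep visible levels there.

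The phagocyte NADPH oxidase makes superoxide from a membrane pair of subunits and a cytosolic complex, and several of its genes were low in K562. NCF4, the p40phox subunit, had 0 reads in K562, against 190 in HL60, 119 in THP1 and 141 in SUDHL4, at least 1201-fold lower than THP1. NCF1, the p47phox subunit, had 0 reads in K562, against 45.5 in HL60, 27.6 in THP1 and 163 in SUDHL4. NCF1 has the near-identical copies NCF1B and NCF1C, also at 0 reads in K562 and also in the set, so how reads were divided among them in the other lines is uncertain. CYBB, the catalytic membrane subunit, stood at 1.74 in K562, against 69.9 in HL60, 59.5 in THP1 and 172 in SUDHL4. The partner of CYBB was not low: CYBA stood at 68.8 in K562, against 106 in HL60, 504 in THP1 and 190 in SUDHL4. RAC1, which completes the complex, was at 373 in K562, within the range of 193 to 406 in the other lines.

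A pair of genes of leukotriene synthesis were in the set. ALOX5AP, which hands arachidonic acid to the lipoxygenase, had 0 reads in K562, against 55.7 in HL60, 140 in THP1 and 260 in SUDHL4. ALOX5, the lipoxygenase itself, stood at 0.438 in K562, against 9.0 in HL60, 14.1 in THP1 and 77.7 in SUDHL4. ALOX5AP was thus not detected in K562, while ALOX5 was, at 15 reads (0.251 to 0.713).

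Class I antigen presentation was low at several steps of its path. HLA-B, a peptide-binding heavy chain, had 8 reads or 0.240 in K562 (0.112 to 0.459), against 765 in HL60, 410 in THP1 and 88.2 in SUDHL4. HLA-C stood at 1.20 in K562, against 378 in HL60, 108 in THP1 and 31.1 in SUDHL4. HLA genes vary between people and resemble each other, so reads of one gene may have been counted for another or lost. The light chain B2M was reduced less, at 368 in K562, against 1149 in HL60, 1060 in THP1 and 956 in SUDHL4, a gap of -1.37 outside the set.

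Upstream of the heavy chains, all 3 catalytic subunits of the immunoproteasome, which cuts peptides for class I, were low. PSMB8 stood at 0.268 in K562, against 177 in HL60, 281 in THP1 and 66.8 in SUDHL4. PSMB9 stood at 0.155 in K562, against 35.1 in HL60, 63.4 in THP1 and 14.9 in SUDHL4. PSMB10 stood at 1.74 in K562, against 48.3 in HL60, 72.8 in THP1 and 13 in SUDHL4. TAP1, 1 chain of the transporter that carries peptides into the endoplasmic reticulum, stood at 4.62 in K562, against 82.5 in HL60, 86.2 in THP1 and 38.3 in SUDHL4. Its partner TAP2 was not low, at 13.5 in K562, 29.5 in HL60, 23.1 in THP1 and 73.5 in SUDHL4. NLRC5, the transactivator of class I genes, had 1 read or 0.0424 in K562, against 59.4 in HL60, 26.7 in THP1 and 5.49 in SUDHL4. The list gave 7 low genes of 17 eligible, where 3.62% of all eligible genes were low. In 15 of the 17 K562 was the lowest of the 4 lines, as it was in 25.2% of all eligible genes.

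On the list of interferon response and nucleic acid sensing 1 of 20 eligible genes was low, a share of 5.0% near the 3.62% of all eligible genes. It was TLR4, the receptor for bacterial lipopolysaccharide, which had 0 reads in K562, against 33.6 in HL60, 18.4 in THP1 and 11.3 in SUDHL4. The interferon receptor chain IFNAR1 stood at 99.3 in K562, 86.3 in HL60, 79.8 in THP1 and 71.2 in SUDHL4. The median gap of the 20 genes was 0.10.

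Among transcription factors of blood, 5 of 20 eligible genes were low in K562, where 3.62% of all eligible genes were low. The same rule turned on SUDHL4 also found 5 genes of this list low in that line alone. RUNX3, a Runt family factor, had 2 reads or 0.0706 in K562, against 125 in HL60, 108 in THP1 and 113 in SUDHL4, a ratio of 1528 to the lowest with a counting interval of 528 to 15778. FLI1, an ETS factor, had 0 reads in K562, against 65.7 in HL60, 122 in THP1 and 78.2 in SUDHL4, at least 665-fold lower than HL60. ETS1, its neighbour on chromosome 11, had 1 read or 0.0424 in K562, against 33.4 in HL60, 38.0 in THP1 and 435 in SUDHL4. BCL11A, a repressor of fetal globin genes in adult red cell precursors, had 0 reads in K562, against 23.7 in HL60, 10.7 in THP1 and 65.2 in SUDHL4. SPI1, which encodes PU.1, was low but readily detected, at 6.88 in K562 (6.04 to 7.79), against 237 in HL60, 206 in THP1 and 92.3 in SUDHL4. Factors that stayed outside the set include IKZF1 at 102 in K562, against 357 in HL60, 229 in THP1 and 385 in SUDHL4. ELF1, another ETS factor, stood at 92.7 in K562, against 134 in HL60, 176 in THP1 and 353 in SUDHL4.

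Genes of cell death were covered by a pair of lists. BCL2, which blocks the mitochondrial death pathway, stood at 1.62 in K562 (1.23 to 2.10), against 105 in HL60, 163 in THP1 and 147 in SUDHL4. BMF, which opposes it, stood at 1.14 in K562, against 12.1 in HL60, 14.8 in THP1 and 38.3 in SUDHL4. They were the 2 low genes of 12 eligible in the BCL2 family (16.7%, against 3.62% of all eligible genes). MCL1, another inhibitor of that pathway, stood at 375 in K562, 201 in HL60, 397 in THP1 and 438 in SUDHL4. None of 10 eligible caspase and death receptor genes was low. With 12 and 10 eligible genes, both lists are too small for their shares to be read as a difference from 3.62%.

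Cytokine receptors and NF-kappaB contributed 3 genes. CSF2RB, the common beta chain of the receptors for GM-CSF, IL-3 and IL-5, had 1 read or 0.0424 in K562, against 37.3 in HL60, 16.2 in THP1 and 24.3 in SUDHL4. TGFBR2, the receptor that binds TGF-beta, had 4 reads or 0.127 in K562, against 36.3 in HL60, 40.6 in THP1 and 6.11 in SUDHL4. RELB, the NF-kappaB subunit of the alternative pathway, stood at 0.664 in K562, against 14.1 in HL60, 7.90 in THP1 and 35.7 in SUDHL4. CSF2RB and TGFBR2 were the low genes of 15 eligible on the cytokine receptor list (13.3%). RELB was the only low one of 9 eligible on the NF-kappaB list (11.1%). Over all eligible genes the share was 3.62%, and lists this short are too small to set against it. Loss at chromosome 9p21, where K562 is known to carry a deletion, fell outside the set where THP1 also lay under 5: MTAP was at 0 in K562, 37.6 in HL60, 0 in THP1 and 24.3 in SUDHL4. FOCAD, a focal adhesion gene of that neighbourhood, stood at 0.833 in K562, against 78.0 in HL60, 74.5 in THP1 and 15.6 in SUDHL4. It was the only low one of 20 eligible there, a share of 5.0% near the 3.62% of all eligible genes.

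**Figure D3:**
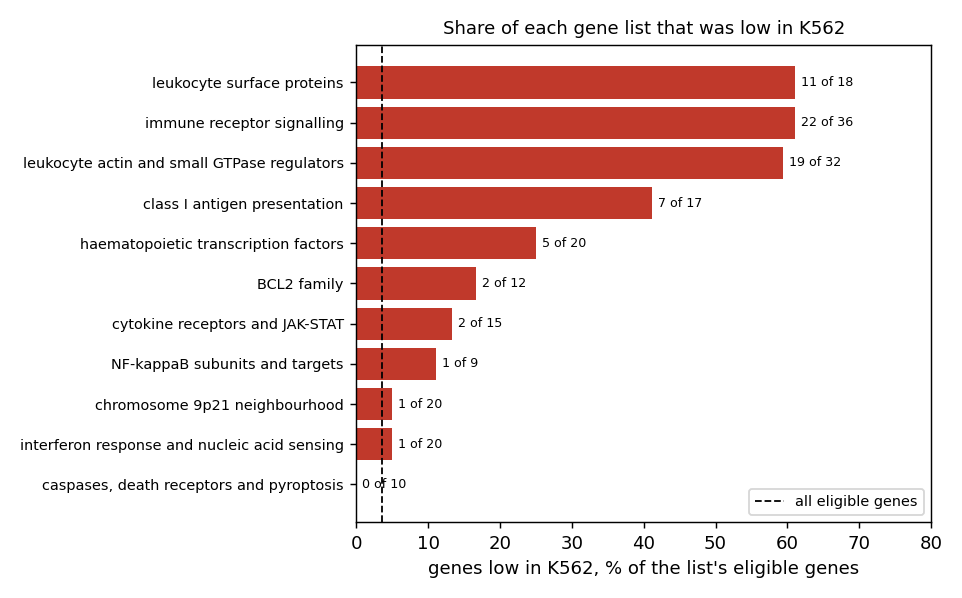
Share of each list's eligible genes that was low in K562, in percent, with the counts beside the bars and the 3.62% over all eligible genes as a dashed line. Lists with fewer than 5 eligible genes are left out, and some lists are not reported here. Among those plotted the shares run from 22 of 36 for immune receptor signalling and 11 of 18 for surface proteins to 0 of 10 for caspases and death receptors, and since K562 values chose the genes no test was made.

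Of the 275 genes 199 were on no list, and the following were picked after their values had been seen. GPX1, a selenium enzyme that removes hydrogen peroxide, had 0 reads in K562, against 89.5 in HL60, 481 in THP1 and 19.4 in SUDHL4. The related GPX4 was not low, at 134 in K562, 147 in HL60, 211 in THP1 and 117 in SUDHL4. MGMT, which removes alkyl groups from guanine in DNA, had 0 reads in K562, against 24.4 in HL60, 18.3 in THP1 and 36.7 in SUDHL4, at least 185-fold lower than THP1. LIPA, the lysosomal acid lipase, had 1 read or 0.0424 in K562, against 83.2 in HL60, 69.4 in THP1 and 75 in SUDHL4. PGM1, which links glycogen breakdown to glycolysis, had 4 reads or 0.127 in K562, against 170 in HL60, 69.7 in THP1 and 39.9 in SUDHL4.

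UBE2C, the ubiquitin-conjugating enzyme of the anaphase-promoting complex, had 3 reads or 0.0988 in K562, against 83.6 in HL60, 33.0 in THP1 and 97.8 in SUDHL4. Its ratio to THP1 was 334, with a counting interval of 133 to 1894. Other genes of mitosis were not low: CCNB1, a mitotic cyclin, stood at 358 in K562, 94.0 in HL60, 127 in THP1 and 267 in SUDHL4. CDC20, which activates the same complex, stood at 210 in K562, 228 in HL60, 604 in THP1 and 163 in SUDHL4. PLK1, a mitotic kinase, stood at 203 in K562, 203 in HL60, 127 in THP1 and 240 in SUDHL4.

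Many of these blood-cell genes have a widely expressed relative with a like biochemical role, and 20 such relatives could be measured. The pairs were chosen after the set was known, and levels are compared across lines within each gene only. Of the 20 relatives 18 stood at 5 or more in K562, the exceptions being VAV2 and PLS3, the relative of LCP1, which was listed at 0 in K562, HL60 and SUDHL4. The rule could be applied to the 15 that reached 5 in all other lines, and 0 of these were low. Over all eligible genes 3.62% were low, and 15 genes are too few to set 0 against that share. K562 was highest for 5 of the 15 and lowest for 4, against 28.7% and 25.2% of all eligible genes. NCKAP1, the relative of NCKAP1L, stood at 180 in K562, against 0.0838 in HL60, 0.779 in THP1 and 1.01 in SUDHL4. CTTN, cortactin, the relative of HCLS1, stood at 34.1 in K562, against 0.553 in HL60, 0.688 in THP1 and 0.312 in SUDHL4. In both pairs K562 held the highest level of the general form, while its lowest level of the blood-cell form was set by the rule. HCLS1 was at 16.5 in K562, 327 in HL60, 357 in THP1 and 321 in SUDHL4. WASL, the relative of WAS, stood at 20.5 in K562, against 4.21 in HL60, 6.37 in THP1 and 4.94 in SUDHL4. Like NCKAP1 and CTTN, WASL was not among the 15 to which the rule could be applied. CORO1C, the relative of CORO1A, stood at 448 in K562, 185 in HL60, 190 in THP1 and 402 in SUDHL4. PSMB5 and PSMB6, the standard proteasome subunits that PSMB8 and PSMB9 replace, were likewise highest in K562, at 196 and 159. PSMB7, which PSMB10 replaces, was not, at 307 in K562, 395 in HL60, 131 in THP1 and 154 in SUDHL4. BCL2L1, which encodes BCL-XL, stood at 216 in K562, against 28.5 in HL60, 35.4 in THP1 and 58.7 in SUDHL4. Others did not follow: VAV2 stood at 2.39 in K562, 2.46 in HL60, 28.2 in THP1 and 60.3 in SUDHL4. The 4 of the 15 that were lowest in K562 were INPPL1, ARHGDIA, RUNX1 and ETS2. INPPL1 stood at 70.3 in K562, against 87.8 in HL60, 161 in THP1 and 121 in SUDHL4. ARHGDIA, the relative of ARHGDIB, stood at 187 in K562, against 895 in HL60, 540 in THP1 and 447 in SUDHL4. RUNX1 stood at 50.3 in K562, against 81.1 in HL60, 198 in THP1 and 61.6 in SUDHL4. ETS2 stood at 37.7 in K562 and 37.9 in THP1.

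The low genes were spread over the genome. Their share of the eligible genes ran from 1.86% on chromosome 20 to 5.41% on chromosome 3, where 24 of 444 were low, with 5.39% on X, 5.15% on 6 and 5.02% on 10. Of 273 low genes that could be placed, 40 (14.7%) had another low gene as the next eligible gene on the chromosome. The shares were 9.0% of 100 in HL60, 19.9% of 307 in SUDHL4 and 7.55% of 53 in THP1. Such a share rises with the share of low genes, which was 3.62% in K562, 1.36% in HL60, 4.04% in SUDHL4 and 0.712% in THP1. No expected share was worked out, so the lines cannot be ranked by it. The 40 genes in K562 include the near-identical copies NCF1 and NCF1C. Adjacent pairs in K562 include ETS1 with FLI1, EVI2B with EVI2A, NCF4 with CSF2RB, CYTH4 with MFNG, EMB with PARP8 and HLA-C with HLA-B. PSMB8, PSMB9 and TAP1 formed a run of 3 on chromosome 6. TPD52, PAG1 and FABP5 formed the other run of 3. TPD52 stood at 0.946 in K562, against 59.9 in HL60, 72.6 in THP1 and 398 in SUDHL4, while FABP5 kept 16.9 in K562, against 105 in HL60, 124 in THP1 and 144 in SUDHL4.

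Sequence upstream of the genes was read from the RefSeq promoter table (GRCh38.p14), 250 bases before the start of each gene. It had an entry for 214 of the 275 genes (77.8%), or 80.5% of the 266 on the chromosomes searched, against 84.8% of 7349 eligible genes on them. The letters GAGGAAGT, a core to which PU.1 and related ETS factors bind, occurred on either strand in 19 of the 214 promoters (8.88%), in 2.12% of the 6230 eligible promoters and in 2.13% of all 27305 promoters of the table. The 19 genes include INPP5D, ALOX5AP, VAV1, LCP1, ITGB7, NCF1, TLR4 and SATB1. When every listed start of a gene was searched, 11.2% of the low genes and 3.00% of eligible genes had a match. A match is a stretch of letters and not a measured binding site.

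The promoters below are shown because they carry that box at different distances from the start, in genes of different roles and different depth of loss. The capitals mark GAGGAAGT or its complement ACTTCCTC, and each sequence runs 5′ to 3′ on the strand of the gene, ending just before the start.
INPP5D, chr2:233060092-233060341, plus strand: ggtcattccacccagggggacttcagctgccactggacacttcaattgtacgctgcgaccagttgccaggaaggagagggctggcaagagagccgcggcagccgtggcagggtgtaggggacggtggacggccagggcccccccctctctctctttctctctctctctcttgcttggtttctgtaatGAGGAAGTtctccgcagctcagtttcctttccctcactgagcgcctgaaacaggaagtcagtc
ALOX5AP, chr13:30713235-30713484, plus strand: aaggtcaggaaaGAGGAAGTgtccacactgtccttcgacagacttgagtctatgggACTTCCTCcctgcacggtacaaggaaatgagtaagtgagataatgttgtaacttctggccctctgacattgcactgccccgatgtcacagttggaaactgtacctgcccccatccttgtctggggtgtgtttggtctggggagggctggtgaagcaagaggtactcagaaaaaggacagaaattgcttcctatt
VAV1, chr19:6772458-6772707, plus strand: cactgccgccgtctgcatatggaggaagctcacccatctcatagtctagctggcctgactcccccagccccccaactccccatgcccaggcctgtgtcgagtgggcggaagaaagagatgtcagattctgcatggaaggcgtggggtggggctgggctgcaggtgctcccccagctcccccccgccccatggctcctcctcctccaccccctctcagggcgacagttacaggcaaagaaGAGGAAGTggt
LCP1, chr13:46182178-46182427, minus strand: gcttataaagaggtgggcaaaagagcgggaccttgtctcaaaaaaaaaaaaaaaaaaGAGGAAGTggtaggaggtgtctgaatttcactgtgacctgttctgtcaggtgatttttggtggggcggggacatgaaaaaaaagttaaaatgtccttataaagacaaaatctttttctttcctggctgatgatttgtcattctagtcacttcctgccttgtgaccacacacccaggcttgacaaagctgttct

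The box starts 63 bases before the start in INPP5D, 11 in VAV1 and 193 in LCP1, and 238 and 194 in ALOX5AP, which holds it on both strands. These genes differed in what K562 left of them: ALOX5AP had 0 reads, INPP5D 1.12 normalised CPM, VAV1 13.5 and LCP1 585. VAV1, an exchange factor for Rac in blood cells, stood at 127 in HL60, 136 in THP1 and 169 in SUDHL4.

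The other motifs were searched in the same windows. The interferon response element, read as GAAA followed after any 2 bases by GAAA, occurred in 3.27% of the 214 promoters, against 2.25% of eligible promoters and 3.07% of all. AGATAA, bound by GATA factors, occurred in 5.61%, against 3.79% of eligible and 9.37% of all. TGTGGTT, bound by RUNX factors, occurred in 4.67%, against 2.39% and 3.63%. TGACGTCA, the cyclic AMP response element, occurred in 0.935%, against 3.53% and 1.77%. The NF-kappaB letters, GGGA then any base and TTTCC, occurred in 1 of the 214 promoters (0.467%), against 0.449% of eligible and 0.546% of all. That 1 promoter belongs to TAP1, and it is shown because it holds the interferon response element in an overlapping pair as well. Capitals mark both, the interferon element first, on the complementary strand.
TAP1, chr6:32853705-32853954, minus strand: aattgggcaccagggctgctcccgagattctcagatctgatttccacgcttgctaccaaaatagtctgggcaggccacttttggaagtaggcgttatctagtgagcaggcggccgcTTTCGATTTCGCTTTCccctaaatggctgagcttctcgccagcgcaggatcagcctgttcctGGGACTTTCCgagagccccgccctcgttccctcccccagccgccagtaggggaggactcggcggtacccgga

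CpG pairs were sparser upstream of the low genes. The ratio of observed to expected CpG pairs had a median of 0.663 in the 214 promoters and of 0.858 in the 6230 eligible promoters. It lay under 0.6 in 45.8% of the 214, against 12% of the eligible. In the 36 promoters of genes with 0 reads in K562 the median was 0.468, and 61.1% lay under 0.6. The median GC content was 64.0% in the 214 promoters and 65.2% in the eligible ones. Genes used in few tissues are known to lack CpG islands more often than widely used ones, and how far tissue range goes with these shares was not tested.

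The mixtures were not used by the rule, so they show whether the levels of the low genes carry over to other libraries. The lines' proportions were estimated from genes outside the set and outside all lists, and gave K562 22.1% in mixture 1, 19.2% in mixture 2, 39.1% in mixture 3, 0.0339% in mixture 4, 52.0% in mixture 5 and 52.4% in mixture 6. The median level of the 275 genes was 41.7 normalised CPM in mixture 1, 37.8 in mixture 2, 26.6 in mixture 3, 56.2 in mixture 4, 24.2 in mixture 5 and 25.5 in mixture 6. It was highest in the mixture with almost no K562 and lowest in mixtures 5 and 6. Mixture 4 also had the largest estimated share of SUDHL4, 57.7%, against 11.9% in mixture 5 and 11.5% in mixture 6. How far each line's share goes with this order was not tested. By the same estimate SUDHL4 made up 0% of mixture 3 and HL60 0.424% of mixture 5. A mixture with almost none of a line, such as mixture 4 for K562, says little about levels in that line. Fewer cells of a line and less RNA per cell cannot be told apart in such bulk libraries.

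**Figure D4:**
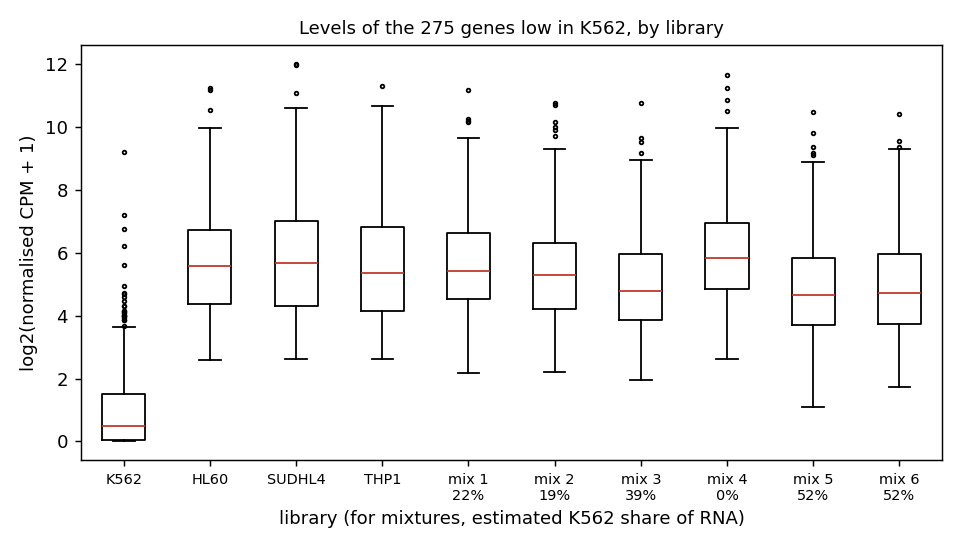
Levels of the 275 genes in each library as log2(normalised CPM + 1), with K562 on the left, then the other pure lines and the 6 mixtures with their estimated K562 share. Boxes span the 25th to 75th percentile with the median as a red line, whiskers reach 1.5 box lengths and circles lie beyond; the K562 median is 0.409 normalised CPM and the mixture medians lie from 24.2 to 56.2.

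The prediction was the sum of the pure lines weighted by the fitted coefficients, which were left free in size and added up to between 0.903 in mixture 3 and 0.962 in mixture 4. Against it the summed level of the 275 genes was 27041 observed and 26183 predicted normalised CPM in mixture 1, 103% of the prediction. It was 102% in mixture 2, 99.9% in mixture 3, 99.2% in mixture 4, 102% in mixture 5 and 100.4% in mixture 6. With the coefficients rescaled to add up to 1, as the shares do, the observed sum lay below the prediction in all 6 mixtures. It was then 98.3% of the prediction in mixture 1, 95.1% in mixture 2, 90.2% in mixture 3, 95.5% in mixture 4, 96.0% in mixture 5 and 95.9% in mixture 6. With the coefficients as fitted, departures by 1 log2 unit or more between observed and predicted levels were found in 6 pairs of gene and mixture. These were 0 of 275 genes in mixture 1, where 0.0875% of all genes compared differed so far, 3 of 275 in mixture 2 (1.24%), 0 of 269 in mixture 3 (0.148%), 1 of 275 in mixture 4 (0.23%), 2 of 262 in mixture 5 (0.717%) and 0 of 266 in mixture 6 (0.24%). Taking the median over the 6 mixtures, 271 of 275 genes lay within 0.5 log2 units of the prediction and 0 differed by 1 or more.

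The largest departures were small in number. ITPR2, a calcium release channel, had observed and predicted levels of 34.4 and 70.8 in mixture 2 and of 23.6 and 53.7 in mixture 5, with a median difference of -0.63. SLC16A7, a monocarboxylate transporter, had a median difference of -0.59 and AKAP13, an anchoring protein for protein kinase A, of -0.56. ENSG00000260822, an RNA without a symbol on chromosome X, had observed and predicted levels of 40.1 and 18.8 in mixture 4, with a median of 0.82. ABRACL, a small actin-regulating protein, had a median of 0.49 and HECA of 0.48, both observed above the prediction in all 6 mixtures. ITGAL lay under the prediction in all 6, with a median difference of -0.42 and 72.7 observed and 136 predicted in mixture 2. By contrast CORO1A was observed at 808 and predicted at 722 in mixture 1 and observed at 378 and predicted at 393 in mixture 6. FLI1 was observed at 71.0 and predicted at 66.9 in mixture 1, and observed at 56.2 and predicted at 46.4 in mixture 6.

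**Figure D5:**
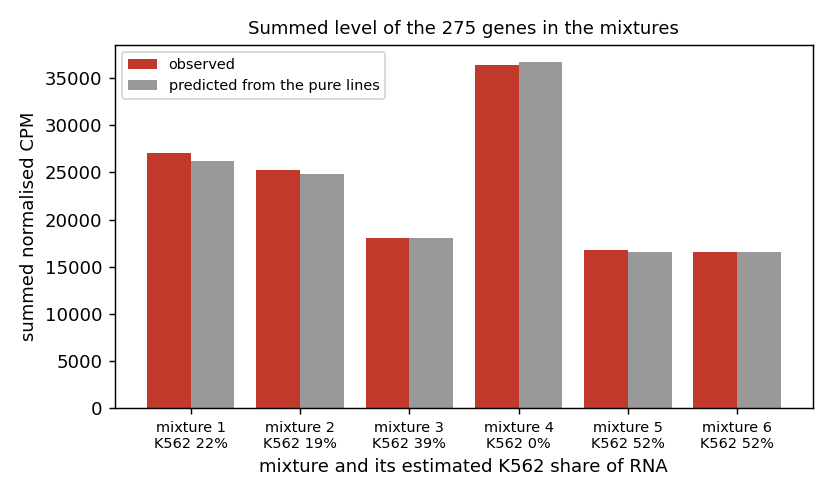
Summed level of the 275 genes in normalised CPM in each mixture, observed (red) and predicted from the pure lines with coefficients of free size (grey), 1 library per bar with no error bar. The observed bars stand at 99.2% to 103% of this prediction (90.2% to 98.3% with coefficients rescaled to add up to 1), and the sums are lowest in mixtures 5 and 6.

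The same rule was turned on the other lines in turn. It found 101 of 7439 genes low in HL60 alone (1.36%), 311 of 7707 in SUDHL4 alone (4.04%) and 53 of 7442 in THP1 alone (0.712%). The share of them with 0 reads was 19.6% in K562, 19.8% in HL60, 35.0% in SUDHL4 and 9.43% in THP1. The lists touched differed in number between the lines. Of the actin and small GTPase list 19 genes were low only in K562, against 0 in HL60, 0 in THP1 and 1 in SUDHL4. Of the signalling list the counts were 22 in K562, 0 in HL60, 0 in THP1 and 1 in SUDHL4. Of the surface list they were 11 in K562, 1 in HL60, 0 in THP1 and 2 in SUDHL4, and of class I presentation 7 in K562 and 0 in each of the others. Of the transcription factor list they were 5 in K562, 1 in HL60, 0 in THP1 and 5 in SUDHL4. These lists were drawn up with results of K562 in view, which favours larger counts in K562. List genes eligible under the rule of each other line were not counted, so these counts do not rank the lines.

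The threshold cut through a continuous range. The genes just inside it were HECA at -2.03, NXPE3 at -2.03 and ITPR2 at -2.01. Just outside lay FNBP1, a membrane-bending adaptor, at -1.99, UBE2E2, a ubiquitin-conjugating enzyme, at -1.99 and STAC3, an adaptor known from muscle, at -1.98. FNBP1 stood at 7.36 in K562, against 113 in HL60, 32.3 in THP1 and 104 in SUDHL4.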

How the data were processed

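Bulk RNA was sequenced from 4 pure lines and 6 mixtures. Build hg19 and the tools featureCounts, HISAT2 and Cell Ranger ARC 2.0.0 are listed, without roles, in the submitters' processing notes. The deposited values are a signal, described as normalised CPM: each equals a whole read count plus 0.5, times a constant of its library, with 0 for no reads. All values came out whole within 0.01 reads, and 1 read was worth 0.0409 to 0.0594. The columns sum to between 909942 and 1108150, so they were scaled by more than total reads. Zero values were set at 3 reads for folds. Intervals are exact 95% Poisson limits on reads, which may include PCR copies. Levels were compared as log2(value + 1). Mixture shares came from non-negative least squares on 100 signature genes per line, with the coefficients free in size. A gene and mixture were compared where the observed or predicted level was 5 or more. The steps were tested on simulated data. Python 3.11.15, numpy 2.4.6, pandas 2.3.3 and scipy 1.17.1 were used. Chromosomes and neighbours came from GENCODE by Ensembl ID, and promoters on chromosome 8 were not used here. The members and lists were chosen with earlier results of these data known. Named genes are the 12 widest gaps, the 5 highest levels in the lowest other line among the rest, up to 4 of each list plus its central genes, the 3 on each side of the threshold and the 3 largest mixture departures each way; all others were picked for their role after their values were seen. Other pseudocounts, scalings, minimum levels, gaps and signatures were tried. Some genes and lists are not reported here.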

Additional observations from a re-analysis of the deposited data

How the results depend on the processing

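The set held 286 genes with a pseudocount of 0.5, 294 with 0.1, 268 with total-read scaling (all 268 of them in the reported set of 275), 276 with housekeeping scaling (267 shared) and 296 with a minimum of 1. It held 145 with a minimum of 20, 177 with a gap of at least 3 and 520 with a gap of at least 1, which follow from the stricter or looser rule. Every list count stayed within 1.5 times its reported count under the pseudocounts and scalings. Under those 4 settings the gaps of all 275 genes stayed below 0, from -10.52 to -1.83. Total-read scaling took 7 genes out of the set and housekeeping scaling 8, which were the same 7 and ACP6. LCP1 (-1.87 and -1.85), NXPE3 (-1.86 and -1.83), ALPK1, NEK6 and PDK3 left because their gap narrowed. GLIPR1, RNF135 and ACP6 left because their lowest other line fell under 5. The 6 pairs of gene and mixture that departed by 1 log2 unit became 3 with 50 signature genes per line, 9 with coefficients rescaled to add up to 1, 8 with a pseudocount of 0.1 and remained 6 in number with total-read scaling; the cause was not tested. Rescaled coefficients moved the median difference in mixture 3 to -0.13, against 0.01 as fitted. Housekeeping scaling moved the median level of HL60 by -0.22 and of THP1 by 0.14 (log2). At 3 reads the limit in K562 is 0.0988 normalised CPM, so genes at 0 cannot be ranked among themselves. No paired analysis was possible because each group has 1 library.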
